A study of Homo sapiens with 48 samples.

Results

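PKD1 and its pseudogene copies PKD1P1, PKD1P5 and PKD1P6 make up 4 of the 58870 genes in the deposited table of expected counts. They were chosen by gene name, and the choice was made on measured values of these libraries, in which the parent gene and the copies both had more counts after loss of UPF1. The differences of these 4 genes between siRNAs and between lines, which rest on the same libraries, are therefore given as a description, with no test. The choice named no line, so the levels in all 16 groups are given. All 4 genes passed the filter on low counts, and 16698 genes passed it in all.

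The cells were Flp-In 293 T-REx cells, an established human embryonic kidney line built to take up a transgene at a fixed genomic site. The groups were 8 stable lines, each with 1 of 2 siRNAs. The CLIP line carried the CLIP tag alone, the WT line carried CLIP-tagged wild-type UPF1, and 6 further lines carried CLIP-UPF1 mutants labelled LECY, E797R, F192E, I757R, FE-ER and IR-ER. The labels do not spell out FE-ER, IR-ER and LECY. Reverse transfection delivered 40 nM of either a non-targeting control (siNT) or an siRNA against UPF1 (siUPF1), and cells were collected 72 h later, with 3 replicates per line and siRNA and 48 libraries in total. All lines kept their own UPF1 gene, so in each line carrying a CLIP-UPF1 protein the siNT cells held both forms. The design text calls the replicates biological without saying how they were separated, so p-values measure the spread between these libraries. The sources used here do not give whether a line was 1 clone or whether the transgene was induced.

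PKD1 encodes polycystin-1, a large membrane protein of the primary cilium that pairs with the channel polycystin-2, the product of PKD2. Loss of either protein in kidney tubule cells causes autosomal dominant polycystic kidney disease. Most of PKD1 except its 3′ end was copied several times along the short arm of chromosome 16, and the copies are transcribed but do not make polycystin-1. UPF1 is the RNA helicase that drives nonsense-mediated decay (NMD), the pathway that degrades RNAs whose translation stops at a premature stop codon, and transcribed pseudogenes often carry such stop codons.

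Because the copies are nearly identical to the parent, the sequences come first. They are from GENCODE 29 transcripts on hg38, run 5′ to 3′ along the transcript, and positions count from the first base of the PKD1 mRNA ENST00000262304.8, which is 14138 nt long with 46 exons. The first stretch, positions 427 to 546 in exons 2 and 3, is shown because a read inside it has the same letters in all 4 genes, so it is printed once for PKD1, PKD1P1, PKD1P5 and PKD1P6.
PKD1 427 to 546, shared by all 4: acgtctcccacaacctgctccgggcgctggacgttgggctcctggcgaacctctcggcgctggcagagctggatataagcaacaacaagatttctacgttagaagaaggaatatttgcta
The second stretch, positions 9103 to 9222 in exons 24 and 25, was picked as the aligned window with the most differences. It shows which bases can separate the genes, with bases that differ from PKD1 in capitals.
PKD1 9103 to 9222: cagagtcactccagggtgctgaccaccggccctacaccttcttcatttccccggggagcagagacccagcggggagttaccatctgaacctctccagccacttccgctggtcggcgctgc
PKD1P1: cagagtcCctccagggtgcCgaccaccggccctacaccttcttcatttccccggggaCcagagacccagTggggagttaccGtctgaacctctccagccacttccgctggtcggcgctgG
PKD1P5: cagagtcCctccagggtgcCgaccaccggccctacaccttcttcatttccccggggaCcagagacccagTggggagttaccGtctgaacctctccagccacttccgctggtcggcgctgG
PKD1P6: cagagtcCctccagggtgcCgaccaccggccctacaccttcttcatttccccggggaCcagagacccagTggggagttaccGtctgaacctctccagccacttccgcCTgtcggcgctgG
The third stretch, positions 10517 to 10636 in exons 33 and 34, lies beyond the last part that any copy shares and belongs to PKD1 alone.
PKD1 10517 to 10636: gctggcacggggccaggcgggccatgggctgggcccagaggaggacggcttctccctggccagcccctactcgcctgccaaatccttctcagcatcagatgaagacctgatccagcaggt

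In the second stretch PKD1P1 and PKD1P5 had the same 6 differences from PKD1, which were A8C, T20C, G58C, C70T, A82G and C120G, counted from the first base of the stretch. PKD1P6 had those and T108C and G109T, 8 in all. A read within this stretch can thus be told from PKD1 but not between PKD1P1 and PKD1P5. Of the 3435 windows of 120 nt that aligned to all 3 copies, 195 held no difference between PKD1 and any copy. Summed over the 3 copies, the median window held 7 differences and the second stretch, the extreme, held 20. Over its aligned length, PKD1P1 was 98.2% identical to the PKD1 mRNA and covered 46.8% of it. PKD1P5 was 98.0% identical over 72.7% of the mRNA, and PKD1P6 98.4% identical over 33.7%.

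All 4 genes lie on chromosome 16 in hg38. PKD1 (ENSG00000008710.19, protein-coding) is at chr16:2088710-2135898 on the minus strand. PKD1P6 (ENSG00000250251.6) is at chr16:15125242-15154564 on the minus strand and PKD1P1 (ENSG00000244257.5) at chr16:16310341-16334190 on the plus strand. PKD1P5 (ENSG00000254681.6) is at chr16:18374521-18401940 on the minus strand. GENCODE 29 lists PKD1P1 as an unprocessed pseudogene with 1 transcript, and PKD1P5 and PKD1P6 as transcribed unprocessed pseudogenes with 6 transcripts each. PKD1 has 40 annotated transcripts, of which 5 are protein-coding, 21 are retained introns, 10 are processed transcripts and 4 are classed as NMD targets. The gene-level counts do not say which of these the reads came from.

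Read sharing was measured as the share of 75-nt windows of a gene's transcripts that also occur in a transcript of another gene on the sense strand. For PKD1 17.1% of windows occurred elsewhere, against 97.6% for PKD1P1, 85.0% for PKD1P5 and 66.8% for PKD1P6. A single read of that length from PKD1P1 could therefore be assigned to it alone at 2.42% of windows, and one from PKD1 at 82.9%. These shares pool all annotated transcripts of a gene and take each window by itself. The libraries were paired-end, so a pair of reads could be placed more often than this. With windows of 150 nt, the share found in no other gene was 95.8% for PKD1, 5.09% for PKD1P1, 31.2% for PKD1P5 and 52.2% for PKD1P6. The read length was not given in the sources used here. Windows of 75 nt were also shared with 9 other genes of the same segments, among them NPIPA1, NPIPA8, NPIPA9 and AC138969.1, a gene that overlaps PKD1P1 on the same strand and carries the name PKD1P1 in GENCODE 29. Along the PKD1 mRNA 21.1% of 75-nt windows occurred in a copy and 21.9% in any other gene. The last window shared with a copy started at position 10302 in exon 31.

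**Figure D1:**
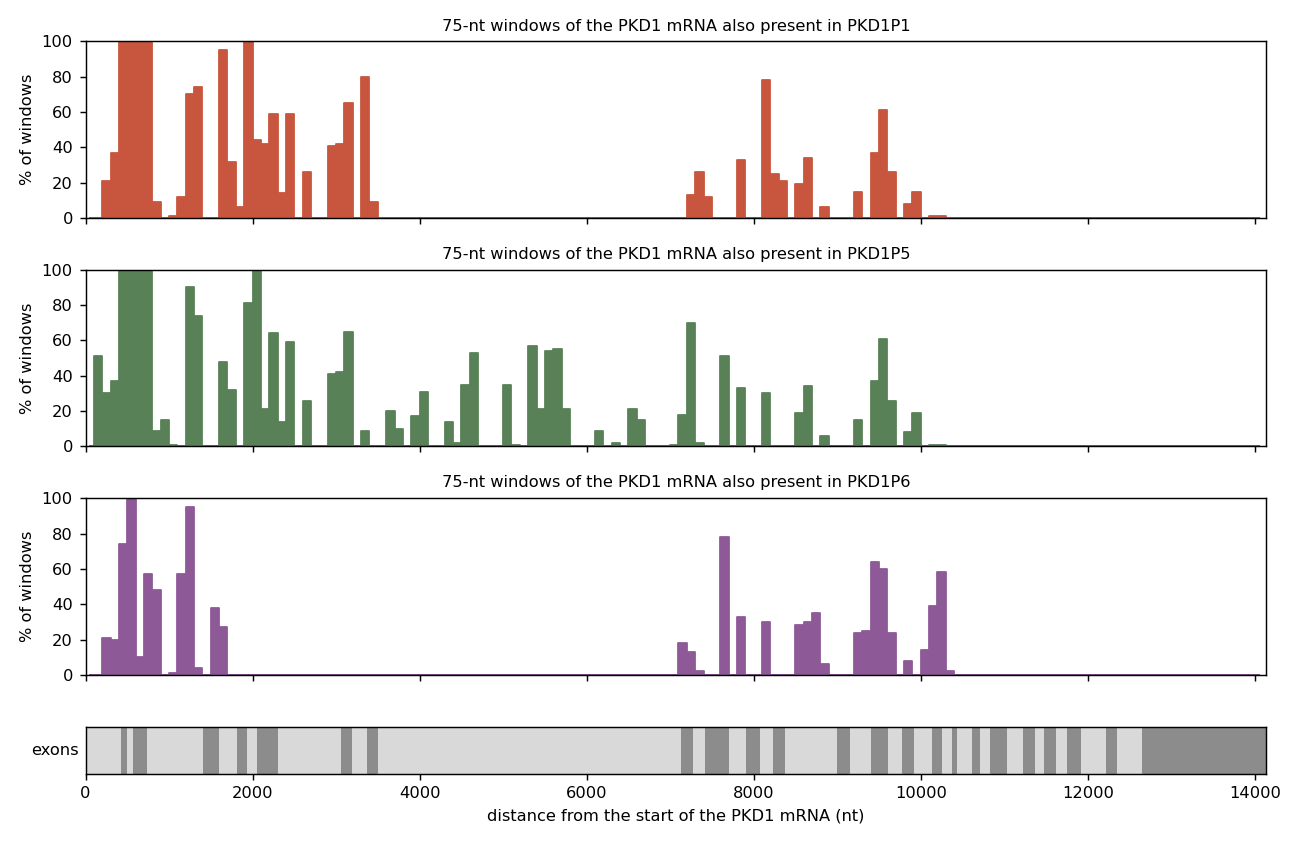
Share of 75-nt windows of the PKD1 mRNA (y axis, % of windows in each 100-nt bin) that also occur in PKD1P1, PKD1P5 or PKD1P6, by distance from the start of the mRNA (x axis, nt), with exons as alternating grey blocks below. Shared windows are scattered over the mRNA up to position 10302, PKD1P5 alone shares windows in a central stretch, and the 3′ end is shared with no copy.

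RSEM splits a read that fits more than 1 gene by an estimate, which leaves counts that are not whole. Values were not whole numbers in 48 of 48 libraries for PKD1 and PKD1P6 and in 47 of 48 for PKD1P1 and PKD1P5. The median gene with a mean of 50 to 2000 counts had such values in 10.4% of libraries. The sum of the 4 genes does not depend on how reads were divided among them. It was therefore fitted in the same model and is called the family sum below. The sum still depends on how reads were divided between the 4 and the other genes that share their windows. For PKD1P1, 74.2% of 75-nt windows occurred in another of the 4 genes and 97.6% in any other gene. These shares were 53.7% and 85.0% for PKD1P5, 47.2% and 66.8% for PKD1P6, and 15.5% and 17.1% for PKD1. Sums that include the other sharing genes are given below. The biological coefficient of variation was 11.9% for PKD1, 18.1% for PKD1P1, 17.1% for PKD1P5, 13.1% for PKD1P6 and 10.5% for the family sum.

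The total per library ran from 6016999 to 14551820 expected counts (median 8670883). Levels are given in CPM, counts scaled to the TMM-adjusted library total, which are relative: fewer cells of a type and less RNA per cell cannot be told apart. Of the 5 markers listed for this line, all 5 were tested. In the CLIP knockdown PAX2 and INA were lower, and in the WT knockdown TUBB3 and INA were. Of all genes, 33.7% were called in the CLIP knockdown and 15.4% in the WT knockdown. With the replicate block 1 marker was also higher in CLIP and 2 in WT. The block called 7623 of all 16698 genes in CLIP and 4353 in WT. PAX2 had a log2 difference of -1.32 in CLIP (adjusted p = 0.00195), -0.36 in WT (adjusted p = 0.547) and -1.14 in LECY (adjusted p = 0.00731), and INA -0.42 (adjusted p = 0.0177), -0.48 (adjusted p = 0.0187) and -0.56 (adjusted p = 0.00314). The most abundant, NEFL, lay between 143 and 457 CPM. The part of these marker changes in the results below was not tested. UMOD and AQP2 of kidney tubules had no count in 48 of 48 libraries, SLC34A1 had none in 47 and SLC12A1 none in 42. AQP1 had counts in every library, at 0.25 to 1.47 CPM. None of these 5 kidney tubule markers passed the filter, so none could be tested.

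UPF1, the siRNA target, had 111, 97.2 and 109 CPM in the CLIP libraries with siNT and 20.4, 21.3 and 19.5 CPM with siUPF1. The 2 groups did not overlap, and the log2 difference was -2.37 (SE 0.13, adjusted p = 2.1e-17 in edgeR's quasi-likelihood test with Benjamini-Hochberg adjustment, as for all adjusted p-values below). In the WT line UPF1 had 4059 ± 379 CPM (SD, n = 3) with siNT and 4515 ± 409 CPM with siUPF1. In the LECY line UPF1 had 3613 ± 632 CPM and 3260 ± 223 CPM. Transgene and endogenous reads are summed at this gene, so knockdown of the endogenous form can be read in the CLIP line only.

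In CLIP cells all 4 genes stood higher with siUPF1 than with siNT, with no overlap between libraries. How many of all genes had libraries that lay apart in this way was not counted, here or in the lines below. Nothing is therefore read from the lack of overlap. PKD1 had 81.0, 60.05 and 58.6 CPM with siNT and 149, 106 and 122 CPM with siUPF1. PKD1P1 had 26.8, 28.96 and 33.3 CPM with siNT and 75.9, 69.9 and 88.4 CPM with siUPF1. Replicate 1 was the highest PKD1 library under both siRNAs, while PKD1P1 had its highest value in replicate 3 under both. PKD1P5 had 13.1, 14.3 and 14.1 CPM with siNT and 27.3, 43.8 and 48.6 CPM with siUPF1. PKD1P6 had 19.2, 20.5 and 16.2 CPM with siNT and 36.9, 37.9 and 44.6 CPM with siUPF1. The siUPF1 libraries of PKD1P5 spread the most, and their lowest value was still above every siNT value. The family sum had 140, 124 and 122 CPM with siNT and 289, 258 and 303 CPM with siUPF1.

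The log2 difference in CLIP cells was 0.92 (SE 0.14) for PKD1, 1.39 (SE 0.22) for PKD1P1, 1.52 (SE 0.22) for PKD1P5 and 1.10 (SE 0.17) for PKD1P6. As folds these were 1.89, 2.62, 2.87 and 2.14. The family sum had a log2 difference of 1.14 (SE 0.12). Over all genes tested, 33.7% were called at an adjusted p under 0.05 in this comparison, and the median log2 difference was -0.03. Since the 4 genes were chosen on such a rise, nothing is read from their share. Of the 155 CPM added to the sum in CLIP cells, 38.1% stood at PKD1, 31.3% at PKD1P1, 16.8% at PKD1P5 and 13.7% at PKD1P6.

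In WT cells, which keep a CLIP-tagged wild-type UPF1, the same genes had log2 differences between the siRNAs of -0.23 for PKD1P1 to 0.23 for PKD1. PKD1 had 66.6, 69.2 and 78.7 CPM with siNT and 94.9, 69.8 and 86.8 CPM with siUPF1. PKD1P1 had 31.4, 37.0 and 36.2 CPM with siNT and 29.4, 31.3 and 28.9 CPM with siUPF1. The PKD1 libraries overlapped, and those of PKD1P1 with siUPF1 lay just below the lowest with siNT. PKD1P5 had 16.6, 12.97 and 22.0 CPM against 14.0, 20.2 and 25.7 CPM. PKD1P6 had 15.1, 18.2 and 18.7 CPM against 19.0, 15.8 and 14.4 CPM. Both copies overlapped between siRNAs. The family sum had 130, 137 and 156 CPM against 157, 137 and 156 CPM, a log2 difference of 0.09 (SE 0.12). Over all genes, 15.4% were called in the WT knockdown.

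In the LECY line all 4 genes again stood higher with siUPF1. PKD1 had 67.5, 73.8 and 88.6 CPM with siNT and 119, 114 and 138 CPM with siUPF1. PKD1P1 had 30.4, 28.4 and 44.5 CPM with siNT and 74.9, 74.4 and 70.5 CPM with siUPF1. LECY replicate 3 was the highest siNT library of both genes, and still below every siUPF1 library. PKD1P5 had 12.9, 13.4 and 18.2 CPM against 38.7, 44.3 and 36.8 CPM. PKD1P6 had 18.2, 22.5 and 21.1 CPM against 32.5, 39.5 and 42.2 CPM. The siUPF1 libraries stood above the siNT libraries for both copies. The log2 differences were 0.69 for PKD1, 1.09 for PKD1P1, 1.42 for PKD1P5, 0.89 for PKD1P6 and 0.91 (SE 0.12) for the family sum, and 29.4% of all genes were called in the LECY knockdown.

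**Figure D2:**
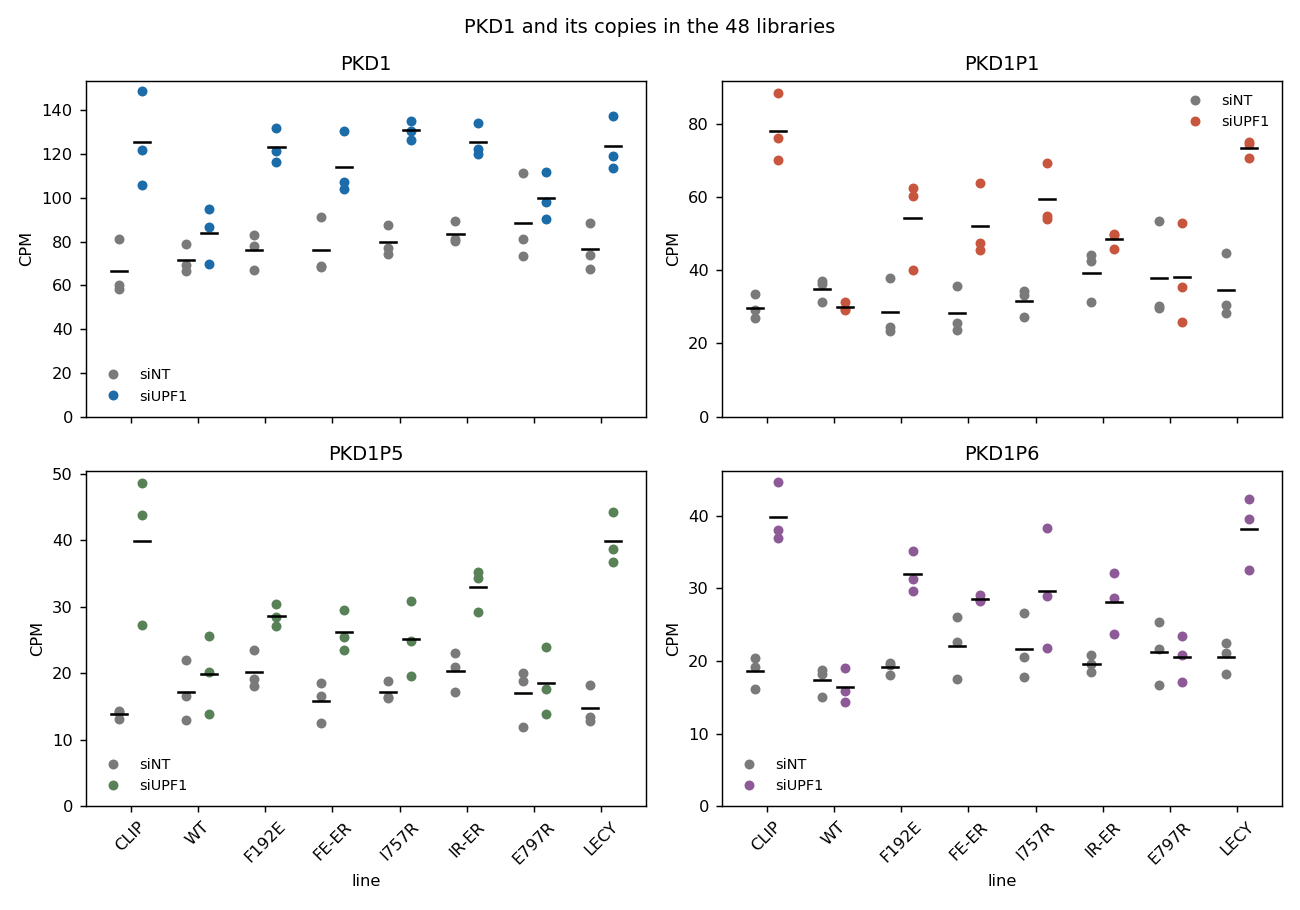
Level of PKD1, PKD1P1, PKD1P5 and PKD1P6 (y axes, CPM, each starting at 0) in the 8 lines (x axis) with siNT and siUPF1, 1 point per library. In CLIP and LECY the siUPF1 points lie above the siNT points for all 4 genes, and in WT and E797R they do not.

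With siUPF1 the family sums of the other 5 mutant lines fell between those of WT and LECY, while single genes did not all do so. The family sum went from 144 ± 14.1 to 238 ± 19.0 CPM in F192E, from 142 ± 22.3 to 221 ± 16.6 CPM in FE-ER and from 150 ± 12.4 to 245 ± 23.8 CPM in I757R (SD, n = 3). It went from 163 ± 7.83 to 235 ± 13.3 CPM in IR-ER and from 164 ± 39.3 to 177 ± 21.9 CPM in E797R. The siUPF1 libraries lay above all siNT libraries of their line in 6 of 8 lines for PKD1, PKD1P1, PKD1P5 and the family sum, and in 5 of 8 lines for PKD1P6. The exceptions were WT and E797R for every gene, and I757R for PKD1P6. The share of all genes whose libraries lay apart in this way was not counted, so nothing is read from these counts. The share called by the test is another measure. The share of all genes called in the knockdown was 15.9% for I757R, 16% for E797R, 17% for IR-ER, 18.6% for FE-ER and 21.9% for F192E.

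Ranked by the family sum with siUPF1, the lines were CLIP (283 ± 23.4 CPM), LECY (275 ± 11.1), I757R, F192E, IR-ER, FE-ER, E797R and WT (150 ± 11.1). Neighbours in this order differed by more than the larger of their SDs between LECY and I757R, between FE-ER and E797R, and between E797R and WT, and by less elsewhere. With siNT the sums ran from 129 CPM in CLIP to 164 CPM in E797R, and IR-ER and I757R were the only neighbours whose gap of 12.8 CPM passed the larger SD of 12.4 CPM.

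PKD1 itself ran from 66.5 CPM in CLIP to 88.6 ± 20.1 CPM in E797R with siNT, and no neighbours differed by more than their SD. With siUPF1 PKD1 was highest in I757R (131 ± 4.37 CPM), followed by CLIP (126 ± 21.8), IR-ER (126 ± 7.48), LECY (124 ± 12.5), F192E (123 ± 7.87), FE-ER (114 ± 14.4), E797R (99.98 ± 10.9) and WT (83.8 ± 12.8). Of the steps between neighbours in this order, only that from E797R to WT was larger than the SDs.

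PKD1P1 with siUPF1 was highest in CLIP (78.1 ± 9.40 CPM) and LECY (73.3 ± 2.44), then I757R (59.3 ± 8.54), F192E (54.1 ± 12.3), FE-ER (52.2 ± 10.1), IR-ER (48.4 ± 2.25), E797R (38.0 ± 13.7) and WT (29.9 ± 1.26). The step from LECY to I757R alone was larger than the SDs. With siNT it lay between 28.3 CPM in FE-ER and 39.3 CPM in IR-ER. No step under siNT was larger than the SDs.

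PKD1P5 with siUPF1 stood at 39.9 ± 3.91 CPM in LECY and 39.9 ± 11.2 CPM in CLIP, followed by IR-ER (32.9 ± 3.26), F192E (28.6 ± 1.62), FE-ER (26.2 ± 3.12), I757R (25.1 ± 5.69), WT (19.9 ± 5.86) and E797R (18.5 ± 5.11). Only the step from IR-ER to F192E was larger than the SDs. With siNT PKD1P5 lay between 13.9 CPM in CLIP and 20.4 CPM in IR-ER, and only the step from F192E to I757R was larger.

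PKD1P6 with siUPF1 stood at 39.8 ± 4.196 CPM in CLIP, 38.1 ± 5.00 in LECY, 32.0 ± 2.83 in F192E, 29.6 ± 8.27 in I757R, 28.6 ± 0.442 in FE-ER, 28.2 ± 4.24 in IR-ER, 20.5 ± 3.16 in E797R and 16.4 ± 2.33 in WT. Steps larger than the SDs lay between LECY and F192E, IR-ER and E797R, and E797R and WT. With siNT PKD1P6 lay between 17.3 CPM in WT and 22.0 CPM in FE-ER, where no neighbours differed by more than their SD.

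**Figure D3:**
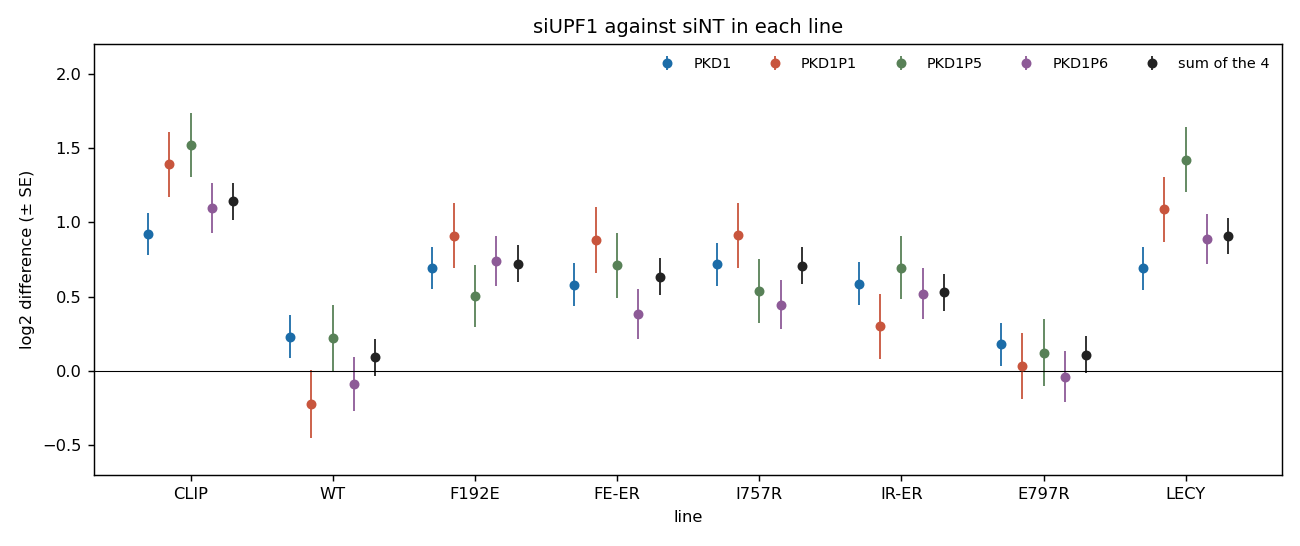
Log2 difference between siUPF1 and siNT (y axis, bars are ± SE from the edgeR fit) for the 4 genes and their sum in each of the 8 lines (x axis). The sum is highest in CLIP (1.14) and LECY (0.91), between 0.53 and 0.72 in F192E, FE-ER, I757R and IR-ER, and near 0 in WT (0.09) and E797R (0.11).

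The knockdown difference of the sum on the log2 scale was 0.72 in F192E, 0.71 in I757R, 0.63 in FE-ER, 0.53 for IR-ER and 0.11 for E797R, each with an SE of 0.12. In the same order of lines PKD1 had 0.69, 0.72, 0.58, 0.59 and 0.18. PKD1P1 had 0.91, 0.91, 0.88, 0.30 and 0.03, so that IR-ER showed less for this copy than for PKD1. PKD1P5 had 0.50, 0.54, 0.71, 0.69 and 0.12, and PKD1P6 had 0.74, 0.45, 0.38, 0.52 and -0.04. With an SE of about 0.22 for PKD1P1 and PKD1P5 and 0.17 for PKD1P6, differences of this size between copies are of the order of the error of the fit and were not tested.

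The comparison of mutant lines with WT, both with siUPF1, asks whether a mutant protein leaves these RNAs at the level that the wild-type protein does once endogenous UPF1 is reduced. Its libraries are part of the rise for which the genes were chosen, and all 6 comparisons share the 3 WT libraries. For the 4 genes and their sum the differences are therefore given as values with their SE, with no test. The share of all genes called in each comparison is given beside them, and nothing is read from it. The share of all genes whose libraries lay apart from those of WT is another measure. It was not counted, so nothing is read from such counts of the 4 genes below.

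In LECY cells all 3 libraries lay above all 3 WT libraries for each of the 4 genes. The log2 difference was 1.29 for PKD1P1 (SE 0.22), 1.22 for PKD1P6 (SE 0.17), 0.99 for PKD1P5 (SE 0.21) and 0.56 for PKD1 (SE 0.14). The family sum differed by 0.87 (SE 0.12), which is 1.83-fold. Of all genes, 13.5% were called in this comparison. UPF1 itself was also lower in LECY than in WT with siUPF1, with a log2 difference of -0.47 (SE 0.11, adjusted p = 0.00283), while the other mutant lines had UPF1 differences of -0.23 (F192E) to 0.09 (FE-ER) that were not called. The part of this lower UPF1 level was not tested.

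In F192E cells the libraries of all 4 genes also lay above those of WT. Of all genes, 1.83% were called by the test in this comparison. PKD1P6 ran from 29.6 to 35.1 CPM against 14.4 to 18.97 CPM in WT, and PKD1P1 from 39.9 to 62.3 CPM against 28.9 to 31.3 CPM. The log2 differences were 0.96 for PKD1P6 (SE 0.17), 0.85 for PKD1P1 (SE 0.22), 0.55 for PKD1 (SE 0.14), 0.52 for PKD1P5 (SE 0.21) and 0.66 for the family sum (SE 0.12).

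In IR-ER cells the libraries of all 4 genes lay above those of WT. In FE-ER and I757R those of 3 of 4 did, and PKD1P5 overlapped with WT. Of all genes, the test called 0.246% in IR-ER, 0.425% in FE-ER and 0.0779% in I757R, which is not a share of genes whose libraries lay apart. PKD1P6 had log2 differences of 0.80 in FE-ER, 0.84 in I757R and 0.78 in IR-ER. PKD1P1 had 0.80, 0.99 and 0.70 and PKD1 had 0.44, 0.64 and 0.58 in the same order. PKD1P5 had 0.39, 0.32 and 0.72, with an SE of 0.22, so its 95% interval reached below 0 in FE-ER and I757R. The family sum had 0.56, 0.70 and 0.65, each with an SE of 0.12.

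In E797R cells each of the 4 genes overlapped with WT. The log2 differences from WT were 0.25 for PKD1, 0.36 for PKD1P1, -0.13 for PKD1P5 and 0.32 for PKD1P6. The family sum differed by 0.24 with a 95% interval of -0.0053 to 0.48, although its libraries, from 160.6 to 202 CPM, lay just above the highest WT library at 157 CPM. Of all genes, 0.0479% were called.

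**Figure D4:**
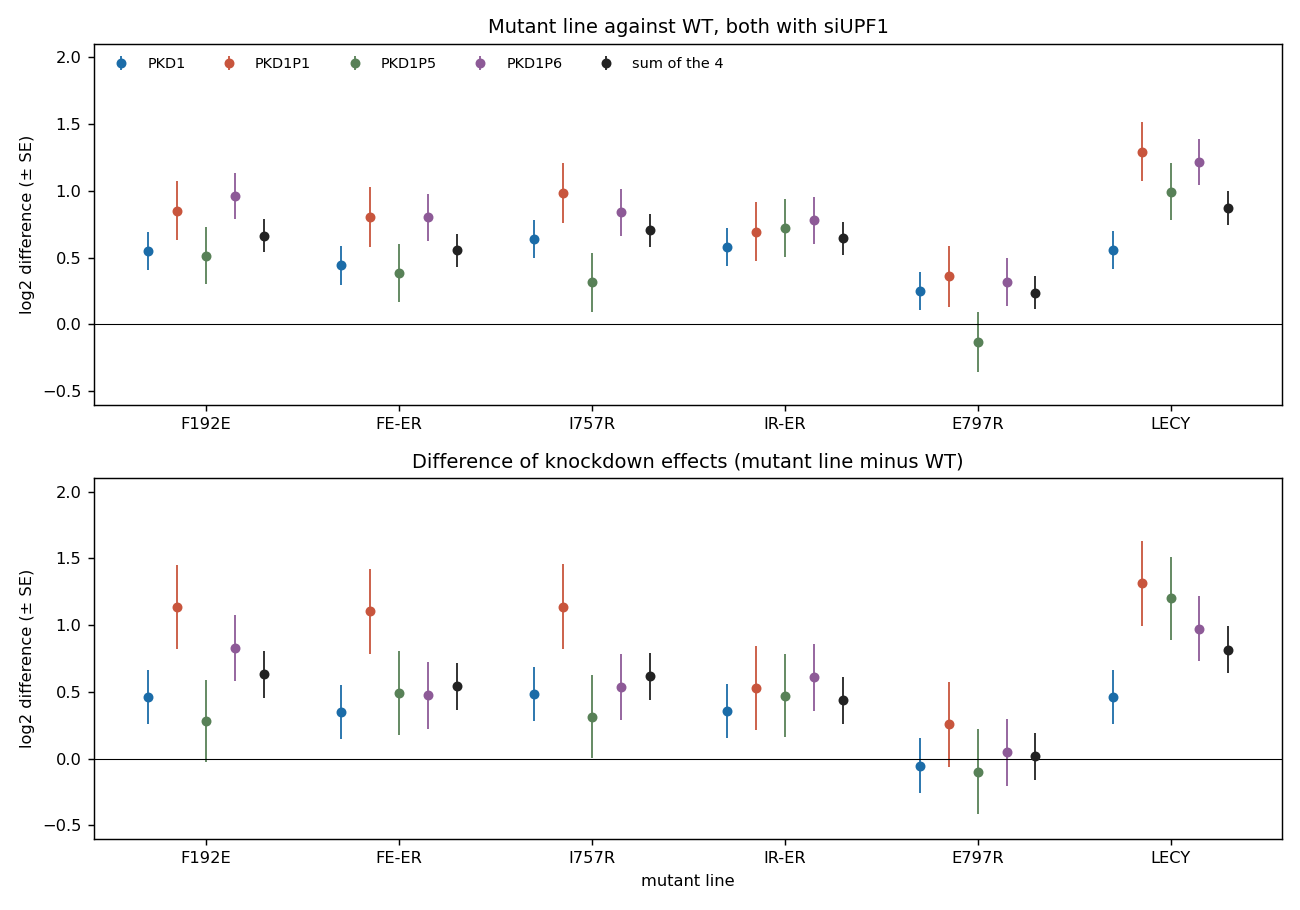
Log2 differences (y axes, bars are ± SE) for the 4 genes and their sum in the 6 mutant lines (x axis). The upper panel compares each line with WT under siUPF1, and the lower panel compares the knockdown difference of each line with that of WT, where the LECY sum stands at 0.82 and the E797R sum at 0.02.

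The knockdown difference of a mutant line minus that of WT, called the excess below, is built from the same values and is likewise a description. In LECY the excess on the log2 scale was 1.31 for PKD1P1 (SE 0.32), 1.20 for PKD1P5 (SE 0.31), 0.97 for PKD1P6 (SE 0.25) and 0.46 for PKD1 (SE 0.20). The point estimates of the 3 copies lay above that of the parent, and whether they differ from it was not tested. The family sum had an excess of 0.82 (SE 0.18, 95% interval 0.47 to 1.16).

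In the other lines the sum had an excess of 0.63 in F192E (95% interval 0.29 to 0.97), 0.62 in I757R (0.27 to 0.96), 0.54 in FE-ER (0.20 to 0.88) and 0.44 in IR-ER (0.09 to 0.78). In E797R it was 0.02 (-0.33 to 0.36). PKD1P1 had the largest point estimate of the 4 genes in F192E, FE-ER and I757R, at 1.14, 1.10 and 1.14 with an SE of 0.32. Whether LECY differs from the other mutant lines was not tested.

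With siNT the family sums of 5 mutant lines lay closer to WT than with siUPF1, and that of E797R stood at nearly the same distance. The sum differed from WT on the log2 scale by 0.22 in E797R, 0.21 in IR-ER, 0.09 in I757R, 0.056 in LECY, 0.033 in F192E and 0.015 in FE-ER, each with an SE of 0.12 and a 95% interval that held 0. The largest point estimate among the 4 genes was 0.33 for PKD1P6 in FE-ER (95% interval -0.015 to 0.67). PKD1 in E797R, at 0.30 (0.02 to 0.59), was the only one whose interval did not hold 0.

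Set beside the CLIP line, also without a test, the sum with siUPF1 was lower in WT by 0.92 (a log2 difference of -0.92, SE 0.12). In LECY the difference from CLIP was -0.04, with a 95% interval of -0.28 to 0.20. For single genes LECY lay between -0.09 (PKD1P1) and -0.0036 (PKD1P5) of CLIP with siUPF1, and WT stood at -0.58 for PKD1, -1.39 for PKD1P1, -0.997 for PKD1P5 and -1.28 for PKD1P6.

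With siNT PKD1 took 51.4 ± 5.54% of the summed counts in CLIP, 50.8 ± 0.558% in WT and 52.4 ± 1.06% in LECY (SD, n = 3). With siUPF1 it took 44.3 ± 6.31% in CLIP, 55.7 ± 4.74% in WT and 44.9 ± 3.06% in LECY. In LECY the 3 siUPF1 shares, 44.9%, 41.8% and 47.9%, lay below the 3 siNT shares, 52.3%, 53.5% and 51.4%. In CLIP the shares were 57.8%, 48.5% and 47.95% with siNT against 51.5%, 41.1% and 40.2% with siUPF1, which overlap, though each replicate number had the lower share with siUPF1.

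Among the copies, PKD1P1 took 23.3 ± 4.08% with siNT and 27.5 ± 1.45% with siUPF1 in CLIP, and 24.8 ± 1.93% and 20.01 ± 2.41% in WT. PKD1P5 took 10.1 ± 0.452% and 14.6 ± 1.74% in LECY. PKD1P6 took 14.5 ± 1.78% and 14.1 ± 1.14% in CLIP, a difference well inside the SD. Over the 16 groups the mean share of PKD1 ran from 44.3% to 56.6%, and the lowest belonged to CLIP with siUPF1. These shares are as RSEM divided the reads, and with so few private positions in PKD1P1 their split between the copies is uncertain.

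**Figure D5:**
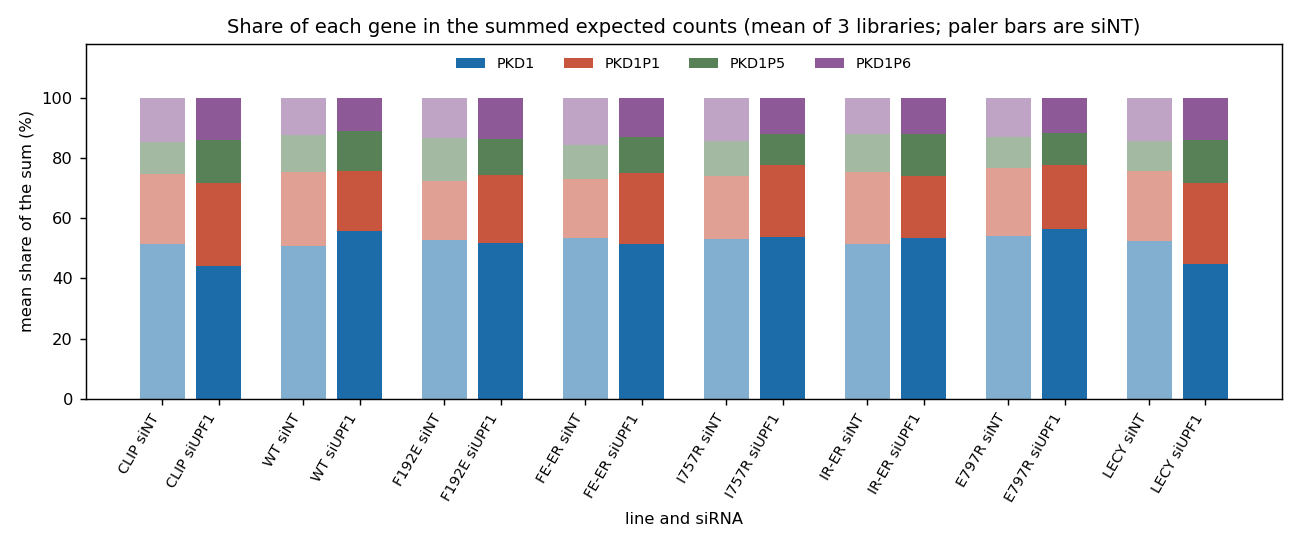
Mean share of each gene in the summed expected counts of the 4 genes (y axis, %, mean of 3 libraries) in each line and siRNA group (x axis), with paler bars for siNT. The PKD1 share lies between 44.3% and 56.6%, with its lowest values in CLIP and LECY with siUPF1.

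Per kilobase of annotated exon the levels of the copies were of the order of the parent's. In CLIP cells with siNT, PKD1 had 3.59 ± 0.677 CPM per kb, PKD1P1 4.36 ± 0.489, PKD1P5 1.35 ± 0.0635 and PKD1P6 3.10 ± 0.367 (SD, n = 3). With siUPF1 the levels per kb were 6.77 ± 1.18 for PKD1, 11.5 ± 1.38 for PKD1P1, 3.88 ± 1.09 for PKD1P5 and 6.62 ± 0.698 for PKD1P6. Exon lengths were 18532 nt for PKD1, which includes its many partial transcripts, 6805 nt for PKD1P1, 10291 nt for PKD1P5 and 6015 nt for PKD1P6.

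Of the 9 other genes that share 75-nt windows with these 4, 8 could be tested. In the CLIP knockdown 7 of the 8 were called and higher, against 33.7% of all genes, with a median log2 difference of 1.41. In the WT knockdown 0 of the 8 were called, against 15.4%, with a median of 0.24. In CLIP the differences were 1.69 for AC138932.1 (adjusted p = 1.64e-09), 1.64 for AC138969.1 (adjusted p = 4.35e-07), 1.46 for AC126755.1 (adjusted p = 1.89e-09) and 1.13 for NPIPA1 (adjusted p = 2.55e-07). AC139256.2, which GENCODE 29 names as a readthrough of PKD1P6 and NPIPP1, had 0.73 (adjusted p = 0.368), and AC126755.6 was too low to test. These genes were found through their sequence after the 4 were chosen, and since they share windows with the copies their values are not independent of those of the 4.

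With the 9 genes added, the sum of all 13 had a log2 difference of 1.30 in the CLIP knockdown, 1.11 in LECY and 0.17 in WT, and an excess of LECY over WT of 0.93 (SE 0.17). I757R and IR-ER changed places: the sum of 13 had 0.57 in I757R and 0.63 in IR-ER, where the family sum had 0.71 and 0.53. The I757R excess was then 0.39 in place of 0.62, and that of E797R -0.018 in place of 0.02. The 9 genes without the 4 gave 1.41 in CLIP, 0.24 in WT and 1.24 in LECY. The 3 copies without PKD1 gave 1.34, -0.07 and 1.11, with an excess of LECY over WT of 1.18 (SE 0.21). PKD1 alone, with most of its windows its own, had smaller point estimates in CLIP (0.92), in LECY (0.69) and for the excess (0.46).

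NPIP genes, a family of nuclear pore complex interacting proteins that lies interspersed with the PKD1 copies, gave 10 higher and 1 lower of 20 tested in the CLIP knockdown, where 33.7% of all genes were called, and 1 higher in the WT knockdown, where 15.4% were called. With the replicate block, which called 4353 of all 16698 genes in WT, 2 were higher there. Their median log2 difference was 0.64 in CLIP and 0.11 in WT. Of the 17 tested NPIP genes that share no 75-nt window with the 4, 7 were higher and 1 lower in CLIP, against the same 33.7%. The differences furthest from 0 among those called were 2.13 for NPIPA8 (adjusted p = 0.0201), 1.60 for NPIPA5 (adjusted p = 2.02e-05), -1.46 for NPIPB9 (adjusted p = 0.021) and 1.22 for NPIPA9 (adjusted p = 0.0129). NPIPA8 and NPIPB9 were low, with medians of 1.60 and 2.64 CPM over the libraries and SEs of 0.72 and 0.50. NPIP genes are near-identical to each other, so single members are uncertain.

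Of 18 other genes of cystic kidney disease and the polycystin complex 15 were tested. In the CLIP knockdown 3 were higher, against 33.7% of all genes called, with a median log2 difference of 0.09. With the replicate block, where the numbers pair and 7623 of all 16698 genes were called, 6 were higher and 2 lower. The 3 were TSC2 (0.66), PRKCSH (0.33), which encodes a subunit of glucosidase II that matures polycystin-1 in the endoplasmic reticulum, and ALG9 (0.26), a mannosyltransferase. PKD2, the channel partner of polycystin-1, had -0.07 (adjusted p = 0.666). In the WT knockdown, where 15.4% of all genes were called, 2 were higher, TSC2 (0.67, adjusted p = 1.38e-05) and PRKCSH (0.40, adjusted p = 0.00973). With the block, which called 4353 of all 16698 genes in WT, 1 was also lower. None of the 6 listed polycystin paralogs was high enough to test.

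TSC2, the tuberous sclerosis gene, overlaps the 3′ end of PKD1 on the opposite strand, from 2047465 to 2089487 on chromosome 16. The strand setting of the counting was not given in the sources used here, so reads in the overlap cannot be told apart. TSC2 was higher by 0.67 in WT, where PKD1 had 0.23 and the family sum 0.09. In LECY TSC2 was higher by 0.44 (adjusted p = 0.00145), where PKD1 had 0.69 and the sum 0.91. The excess of TSC2 in LECY over WT was -0.23 (adjusted p = 0.565).

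Among 19 tested neighbours of PKD1, 7 were higher and 3 lower in the CLIP knockdown, with a median of 0.50, against 33.7% of all genes called, and 4 were higher in WT, against 15.4%. With the replicate block, which called 4353 of all 16698 genes in WT, 4 were higher and 4 lower there. They included TRAF7 (1.39 in CLIP and 1.05 in WT) and ZNF598 (0.79 and 0.48), RAB26 on the other side of PKD1 (-1.58 in CLIP, adjusted p = 0.0258) and the snoRNA host SNHG19 (-1.07 in CLIP). RAB26 was low, with a median of 2.42 CPM over the libraries and an SE of 0.56 in CLIP. NTHL1, next to TSC2, had 0.18 (adjusted p = 0.419). Of 16 tested neighbours of the copies, 7 were higher and 2 lower in CLIP and 6 and 2 in WT, against the same 33.7% and 15.4% of all genes. In WT the block gave 6 and 4, against the 4353 of 16698 genes that it called. Those called in CLIP included the pseudogene RRN3P3 (1.51 in CLIP, 0.66 in WT), NOMO3 (0.46), NTAN1 (-0.45) and BFAR (0.41). In CLIP both sets held calls in both directions.

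The genes whose 16 group means of log2 CPM were most like those of the family sum were ZSCAN12 (Pearson r = 0.975), PARP6 (0.973), SLC29A2 (0.971), FAM219A (0.969) and NPIPA1 (0.969). For PKD1 they were SHARPIN (0.968), RNF157 (0.962) and CLASRP (0.96). For PKD1P1 they were ZSCAN12 (0.955), PARP6 (0.954) and STX1A (0.947), and for PKD1P5 IFRD1 (0.966), AC138932.1 (0.96) and BDP1 (0.959). For PKD1P6 they were PARP6 (0.977), AC126755.1 (0.97) and AFMID (0.966). These are the highest of 16698 genes over 16 means that share libraries and the knockdown, and they are given as a description.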

How the data were processed

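Gene-level RNA abundance came from 48 paired-end libraries of RNA freed of ribosomal RNA, 16 groups of 3. The authors deposited RSEM expected counts per gene; cutadapt, STAR, RSEM and DESeq2 with hg38 are named in the submitters' processing notes without versions or order. The sources used here do not state read length, annotation release or strand setting. Of all values 9.16% were not whole, and expected counts were rounded. Of 58870 identifiers 58597 matched GENCODE 29, which gave positions and sequences.

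Genes were kept by filterByExpr with a minimum count of 10. One model over all 48 libraries (edgeR 4.0.16, R 4.3.3, TMM factors 0.951 to 1.03, robust quasi-likelihood fit) gave contrasts with Benjamini-Hochberg adjustment over 16698 genes, two-sided, called under 0.05. For the 4 genes and their sums only the log2 difference and SE are given: planned tests between lines were dropped, since the same libraries had shown the rise that chose the genes. SEs are the log2 difference over the square root of F, and 95% intervals use 1.96 SE. CPM use TMM-scaled totals. For the family sum, the 4 rows were replaced by their sum in the same fit. An exact permutation test of 3 against 3 cannot go below 0.1 and was not used. The fit was tested on simulated data: in the CLIP knockdown with 16395 genes, 54% of 100 genes changed 1.5-fold and 89% of 100 changed 2-fold were recovered. The simulation gave each gene the spread of the trend over all genes and held no shared replicate deviations. It changed far fewer genes than were called in the data, and none of the lowest expressed. These rates are therefore not those of the real comparison.

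The 4 genes and all gene lists were chosen with earlier results of these data known. Named genes are the 4 and their sum, UPF1, up to 4 called genes of each list with the largest CLIP difference, TSC2, NTHL1 and RAB26, and the genes most like each member (prior count 2). The 9 genes sharing windows, and PKD2 as the partner of polycystin-1, were added after values were seen. Of 6 further PKD1 copies and readthroughs listed, 0 could be tested under those names.

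Replicate numbers come from the sample titles. Same-numbered libraries deviated together in every pair (r over 0.1) in 16 of 20 comparisons (median 0.283, range -0.099 to 0.493), all but FE-ER against WT with either siRNA and I757R and IR-ER against WT with siNT. No replicate pair was identical (chi-square per degree of freedom 3.59 to 16.5). Alternatives were DESeq2 1.42.0, its size factors in edgeR, no filter, only the groups compared, a replicate block, leaving out each library, other sums and a prior count of 0.5.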

Additional observations from a re-analysis of the deposited data

How the results depend on the processing

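For the 4 genes and their sum, DESeq2's own fit, DESeq2 size factors in edgeR, no filter, fits of only the groups compared and the replicate block moved 0 of 112 values each by more than 1 SD of the replicates. These settings use the same libraries for a comparison and can hardly shift it that far. For PKD1 in the CLIP knockdown they gave 0.917 to 0.931, where the SD was 0.36. Nothing is therefore read from these counts either. With the replicate block the excess over WT was 0.63 for F192E and 0.02 for E797R. Leaving out 1 of 3 libraries can hardly shift a value by 1 SD of those same replicates, so nothing is read from that setting. Its ranges were wide for some genes. On the log2 scale the PKD1P5 excess ran from 0.05 to 0.51 in F192E and from 0.08 to 0.54 in I757R.

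Other sums moved some values. The copies alone gave 1.34 in the CLIP knockdown, 1.19 for LECY against WT with siUPF1, an excess of 1.18 for LECY, -1.25 for WT against CLIP with siUPF1 and -1.41 for their knockdown effects. The 9 other genes gave knockdown differences of 1.41 in CLIP, 0.47 in I757R, 0.71 in IR-ER and 1.24 in LECY, an excess of 0.23 for I757R, -1.11 for WT against CLIP with siUPF1, and against WT with siUPF1 0.50 for I757R and 1.15 for LECY. For that LECY difference the 6 genes named as PKD1 copies in GENCODE 29 gave 1.05 and all 13 sharing genes 1.04. The sums of 13 and 9 genes were chosen after seeing the data.

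Counts over all genes moved more. Against WT with siUPF1 the main fit, the replicate block and the fit of the groups alone called 305, 1166 and 85 genes in F192E, 71, 436 and 8 in FE-ER, 13, 89 and 0 in I757R, 41, 332 and 0 in IR-ER, 8, 80 and 0 in E797R, and 2257, 4074 and 1016 in LECY. DESeq2 called 129, 30, 85 and 35 in FE-ER, I757R, IR-ER and E797R, and no filter gave 137, 100, 180 and 39. In the knockdowns the block raised the calls from 2572 to 4353 in WT, 3649 to 5771 in F192E, 3113 to 5190 in FE-ER, 2657 to 4755 in I757R, 2839 to 4716 in IR-ER and 2680 to 4579 in E797R, and fits of the groups alone gave 1204 in WT, 1344 in I757R and 1396 in E797R.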
